A study of Mus musculus with 12 samples.

Results

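The deposited expression table of Resf1-edited mouse mammary cancer cells held 982 genes. Of the 742 left by exclusions, 62 lay above the control in one knockout line and below it in another by at least 1.3-fold. These opposite genes were selected on the measured group means themselves: in one guide group the mean was at least 1.3 times the sgControl mean, and in another it was at most the sgControl mean divided by 1.3. Genes on chromosome 15, predicted Gm genes, Rik genes, genes with listed prefixes such as those of zinc finger, solute carrier and ribosomal protein genes, and Nes, Il2rg, Krt19 and Cgn were left out, as were 10 genes without a symbol, which left 742 genes to choose from. Because the values chose the members, their levels against sgControl are given as a description. Counts of test calls on the same levels are printed beside the share over all deposited genes, and nothing is supported with them.

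RNA sequencing was performed on 6DT1, a mouse mammary cancer cell line from a tumor driven by a Myc transgene in the mammary gland. The control line was labelled as wild type with a scramble guide (sgControl), and the other 3 lines carried guide sg1, sg2 or sg3 against Resf1, all labelled as Resf1 knockouts. Each group had 3 libraries, per the study's methods from triplicate cultures seeded at the same density. Per the labels the medium held serum and puromycin, but as the study's methods describe sorting of the edited lines by GFP, that label may not apply to them. Per the study's methods the edited lines were grown from sorted single cells, so the 3 libraries of a knockout group are taken as dishes of 1 clone, their spread was that of culture and library preparation, and guide and clone cannot be told apart. Whether the sgControl line was also a single clone is not given in the sources used here. The labels also describe a knockdown with short hairpin RNAs in human cells, a treatment that may not apply to these lines, and Resf1 itself was not analysed here.

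Resf1 encodes a large nuclear protein known as a partner of the histone methyltransferase SETDB1 in the silencing of retroelements. The opposite genes have varied roles, and a few of the systems that some of them belong to are named here as background. Eph receptors, SLIT ligands, Frizzled receptors and Hedgehog co-receptors carry signals between neighbouring cells, desmosomes and integrins anchor cells to each other and to the matrix, and interferon-induced proteins restrict viral replication.

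Each value was a normalized signal, an estimated read number divided by a scaling factor of the library, and it measures a gene's level relative to the other libraries and not per length. Over the 982 genes the values of a library summed to between 2069298 and 2713951, of which the opposite genes took 0.456% to 1.15%. The table appears preselected: by limma, a linear model with a moderated spread, the largest unadjusted p for the mean of the 3 knockout lines against sgControl over all 982 genes was 0.0412. Genes whose opposite changes cancel in that mean may therefore be missing from the table. In that mean 46 of the 62 opposite genes were lower than sgControl and 16 higher. Over all 982 genes the median log2 difference in that mean was 0.14. Median log2 ratios to sgControl over all deposited genes were 0.20 in sg1, -0.02 in sg2 and -0.03 in sg3 as deposited, and -0.01, -0.22 and -0.13 after each library was divided by its table total. Of the marker genes of mammary epithelium, the table held Krt8, Krt18 and Krt19, 3 of 14 genes, with Krt8 at a mean of 6215 in sgControl and 13333 in sg1. From 6 leukocyte markers it held Cd68, with means between 135 in sgControl and 305 in sg1, and Il2rg, with 954 in sgControl and 89.2 in sg3. From 4 neural markers it held Nes, which the rule leaves out, with means of 152 in sgControl, 2293 in sg1, 958 in sg2 but 5.39 in sg3, and Map2, with means between 720.3 in sgControl and 1037 in sg1. The 5 fibroblast and 4 endothelial markers were not among the genes analysed here, and the part of such cells in the results was not tested.

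Among the opposite genes sg1 was most often the line with the highest mean, and sg2 or sg3 the line with the lowest. The highest of the 3 knockout means was in sg1 for 42 genes, in sg2 for 12 and in sg3 for 8, while the lowest was in sg1 for 11, in sg2 for 28 and in sg3 for 23. Before the exclusions 78 genes met the rule, 7.94% of the table. The median log2 ratio to sgControl over the members was 0.72 in sg1, -0.53 in sg2 and -0.49 in sg3, beside the medians over all genes given above. By limma at a Benjamini-Hochberg adjusted p of at most 0.05 over all 982 genes, sg1 was called higher for 40 members and lower for 17, where 50.1% of all deposited genes were called higher and 39.1% lower. With sg2 19 members were called higher and 35 lower, against 30.2% and 29.4% of all genes, and with sg3 15 were called higher and 38 lower, against 26.5% and 33.4%. Calls in both directions were made for 53 members, where 9.57% of all genes had them, and for 54 members all 3 libraries of one line lay above and all 3 of another below every sgControl library, where 10.8% of all genes did. The rule used these same contrasts, so nothing is read from these counts.

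**Figure D1:**
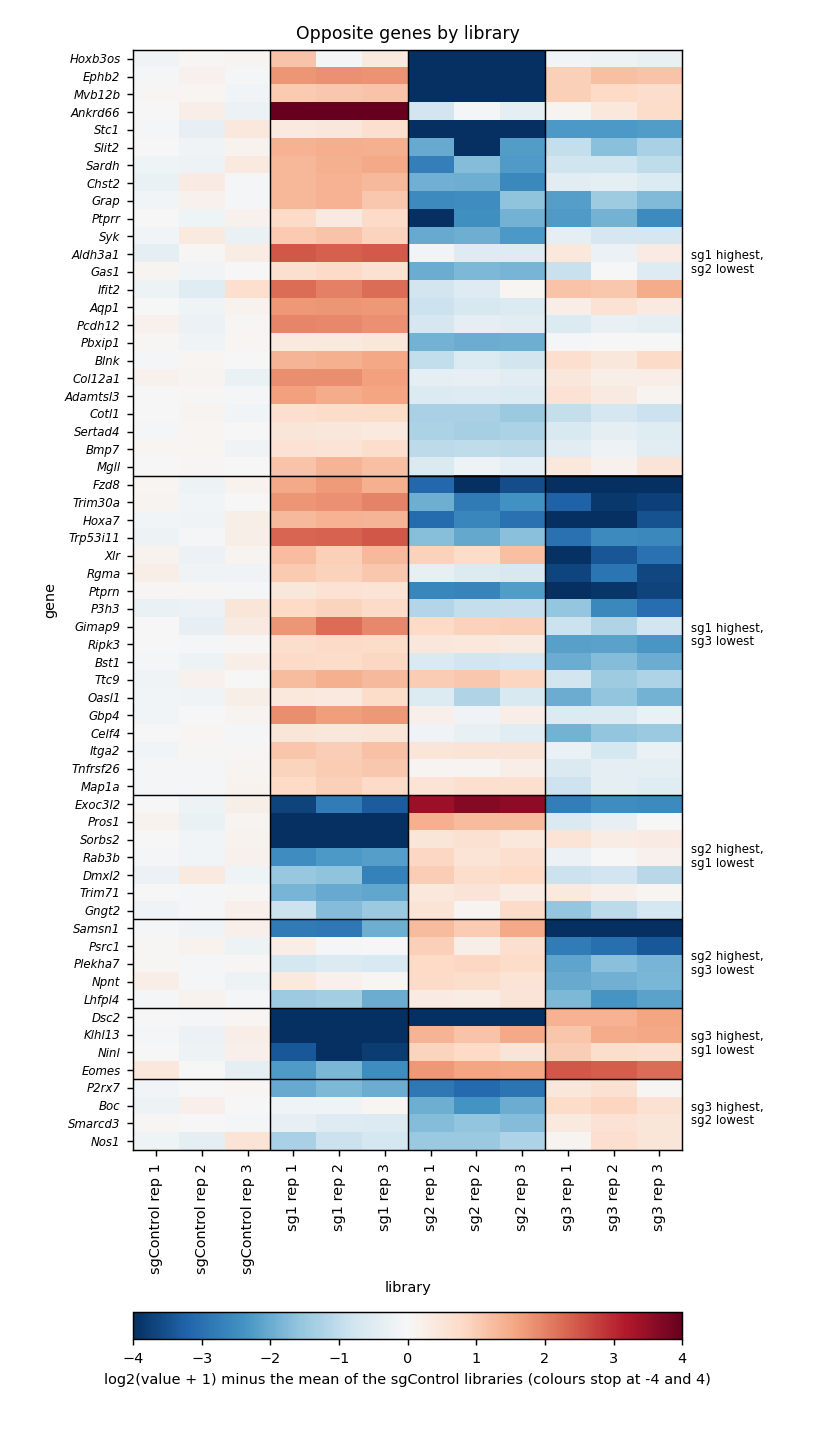
Each row is 1 of the 62 opposite genes and each column 1 of the 12 libraries. Colour gives log2(value + 1) minus the mean of the sgControl libraries, red above and blue below, with colours stopping at -4 and 4. Horizontal lines separate the 6 patterns, and a reader should see sg1 in red over the upper 42 rows and in blue over most of the lower 20.

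By the lines with the highest and the lowest mean, the members fell into 6 patterns. With sg1 highest, 24 genes were lowest in sg2 and 18 in sg3, and the third line was also at or below the lower limit for 11 and 9 of them and at or above the upper limit for 6 in each. With sg2 highest, 7 genes were lowest in sg1 and 5 in sg3. With sg3 highest, 4 genes were lowest in sg1, and for 3 of these sg2 was above the upper limit too, while 4 were lowest in sg2. Over all patterns the third line was above the limits for 16 genes, between them for 16 and below them for 30.

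**Figure D2:**
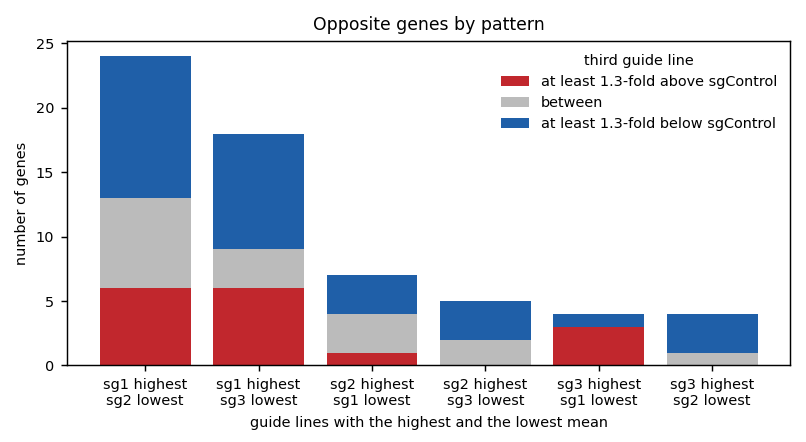
Bars give the number of opposite genes in each pattern, named by the knockout lines with the highest and the lowest mean. Colours divide a bar by where the third line lay relative to the 1.3-fold limit, and the 2 bars with sg1 highest hold 24 and 18 of the 62 genes.

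Rise and fall differed widely in size for some members and little for others. In the plot of the rise against the fall, Ankrd66 rose most, with an sg1 mean 66 times that of sgControl and an sg2 mean only 1.35-fold lower, while Pbxip1 was 1.33-fold higher in sg1 and 3.87-fold lower in sg2. Exoc3l2 was far from sgControl on both sides, and Eomes was 5.13-fold higher in sg3 and 4.94-fold lower in sg1. The highest knockout mean was at least 4 times the lowest for 54 members, with a smallest value of 2.63. Means under 10, a level of a few reads, were found in at least 1 knockout line for 20 of the 62 members and in sgControl for 0, and for 25 of the 680 genes that the rule left out. For such lines only the level is given below and no fold. Members were also expressed at a lower level than the 680 other genes, with a median sgControl mean of 137 against 742. The median replicate SD on the log2 scale was 0.23 for the 56 members of a sgControl mean up to 500. It was 0.16 for the 268 other genes up to that level. These sets were limited by the sgControl level only and not by the levels in the knockout lines. Means under 10 in those lines, where replicates can spread widely on a log scale, were more frequent among members. Whether members spread more widely at a like level in all lines was therefore not tested.

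**Figure D3:**
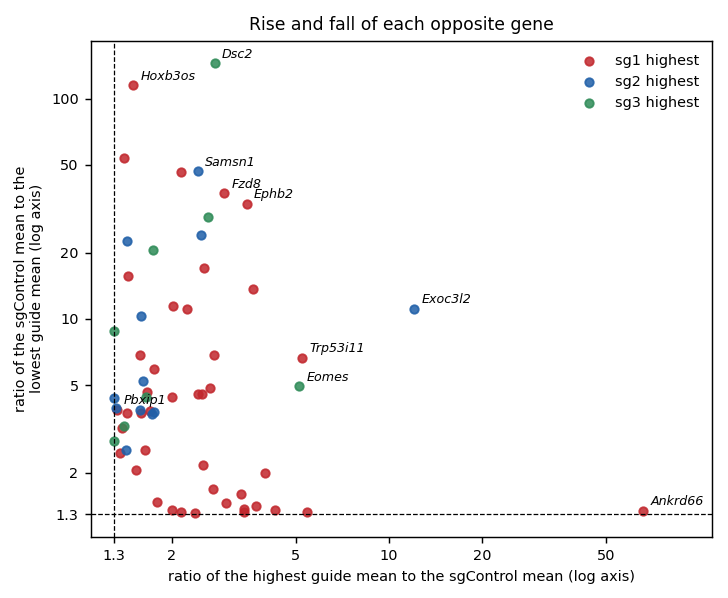
Each point is 1 opposite gene. The horizontal axis gives the ratio of its highest knockout mean to the sgControl mean and the vertical axis the ratio of the sgControl mean to its lowest knockout mean, both on log axes, and dashed lines mark the 1.3-fold limit. For the 20 genes with a lowest mean under 10 the height rests on a few reads. Points near the lower dashed line, such as Ankrd66, barely met the limit for the fall, and points near the left one, such as Pbxip1, barely met it for the rise.

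The sequences around the starts of these genes are shown for 5 members of different patterns with well separated libraries and a single listed start, to show how their start regions differ in base composition. Each is the 300 bases from 250 before to 50 after the RefSeq start on GRCm38.p6, read 5′ to 3′ on the strand of the gene, with every CG dinucleotide in capitals. Ephb2 (chr4:136835963-136836262, minus strand) and Trp53i11 (chr2:93187298-93187597, plus strand) were highest in sg1, Exoc3l2 (chr7:19463037-19463336, plus strand) and Samsn1 (chr16:75909217-75909516, minus strand) in sg2, and Ninl (chr2:151009349-151009648, minus strand) in sg3.
Ephb2: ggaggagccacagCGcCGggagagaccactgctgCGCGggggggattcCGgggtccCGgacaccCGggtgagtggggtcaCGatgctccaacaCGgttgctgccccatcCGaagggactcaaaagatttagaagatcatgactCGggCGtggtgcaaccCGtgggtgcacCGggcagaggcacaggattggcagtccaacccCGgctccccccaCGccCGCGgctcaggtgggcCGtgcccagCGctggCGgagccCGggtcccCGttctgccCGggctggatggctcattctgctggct
Trp53i11: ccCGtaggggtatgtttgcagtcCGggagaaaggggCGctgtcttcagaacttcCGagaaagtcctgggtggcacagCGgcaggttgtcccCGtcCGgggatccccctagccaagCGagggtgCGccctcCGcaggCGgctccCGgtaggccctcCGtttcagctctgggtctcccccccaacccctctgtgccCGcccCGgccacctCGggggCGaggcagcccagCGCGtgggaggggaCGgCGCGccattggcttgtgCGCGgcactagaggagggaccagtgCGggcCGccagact
Exoc3l2: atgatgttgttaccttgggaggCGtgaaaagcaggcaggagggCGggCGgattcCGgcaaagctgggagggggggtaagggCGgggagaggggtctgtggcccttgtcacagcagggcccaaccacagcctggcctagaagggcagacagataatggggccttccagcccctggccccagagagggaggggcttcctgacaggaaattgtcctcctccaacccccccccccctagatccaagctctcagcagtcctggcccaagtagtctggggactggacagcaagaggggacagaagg
Samsn1: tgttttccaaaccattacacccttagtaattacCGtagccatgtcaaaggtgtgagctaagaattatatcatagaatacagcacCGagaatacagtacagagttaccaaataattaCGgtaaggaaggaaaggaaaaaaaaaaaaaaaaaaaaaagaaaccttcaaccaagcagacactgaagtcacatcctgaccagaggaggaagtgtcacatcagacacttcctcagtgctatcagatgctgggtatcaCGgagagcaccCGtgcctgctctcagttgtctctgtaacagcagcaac
Ninl: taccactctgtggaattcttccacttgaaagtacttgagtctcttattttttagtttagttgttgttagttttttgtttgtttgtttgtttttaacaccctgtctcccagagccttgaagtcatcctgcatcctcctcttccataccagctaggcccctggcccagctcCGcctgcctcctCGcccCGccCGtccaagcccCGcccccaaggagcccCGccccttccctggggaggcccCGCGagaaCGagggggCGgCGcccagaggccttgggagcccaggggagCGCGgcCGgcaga
They held 24 CG dinucleotides for Ephb2, 26 for Trp53i11, 5 for Exoc3l2, 5 for Samsn1 and 14 for Ninl. RefSeq windows were found for 44 of the 62 members, 62 windows in all, with a median of 10.5 CG dinucleotides and a range from 0 to 63. The 716 windows of the 530 other deposited genes that the exclusions left had a median of 17, and all 32851 windows of the table a median of 7. Members with a mean under 10 in a knockout line had a median of 9 over 28 windows. The E-box CACGTG, the letters bound by Myc proteins and equal to its own reverse complement, was in 3 member windows (4.84%), in 12.2% of the windows of the other deposited genes and in 7.15% of all windows. The TATA letters TATAAA, on either strand, were in 3.23%, 9.78% and 13.6% respectively. Runs of GGG in 4 copies with gaps of 1 to 7 bases, a letter pattern of G-quadruplexes, were on either strand in 30.6% of member windows, 28.4% of those of other deposited genes and 18.6% of all. A match is a description of letters, and several windows can belong to 1 gene.

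Receptors and other cell surface proteins formed the largest group, with 12 members, of which 9 were highest in sg1, beside 42 of all 62 members. Ephb2, a receptor tyrosine kinase for ephrin-B ligands, had values of 199, 239 and 198 in the sgControl libraries, 727, 756 and 735 in sg1, 406, 486 and 464 in sg3 and 6.27, 4.98 and 7.84 in sg2. All libraries of sg1 and sg3 lay above and those of sg2 below the control range, with sg1 3.48-fold and sg3 2.13-fold above it on the means. The water channel gene Aqp1 had the same order at a higher level, with means of 585 ± 63.4 (SD, n = 3) in sgControl, 1954 ± 22.1 in sg1, 775 ± 91.2 in sg3 and 365 ± 38.5 in sg2. Here the sg2 mean was 1.6-fold lower, so the genes shared an order and not a size of the fall.

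Fzd8, a Frizzled receptor for Wnt ligands, was nearly lost in both sg2 and sg3. Its values were 75.7, 62.6 and 79.1 in sgControl, 208, 237 and 194 in sg1, 7.31, 2.99 and 5.23 in sg2 and 1.16, 1.93 and 2.74 in sg3, so that sg1 was 2.94-fold above sgControl and the other lines were at a few reads. Ptprr, a receptor-type phosphatase of MAP kinases, was similar at a lower level, with 31.4, 28.1 and 35.3 in sgControl, 54.2, 40.7 and 54.1 in sg1, 1.04, 4.98 and 7.84 in sg2 and 5.82, 7.7 and 4.56 in sg3. Its 3 sg1 libraries lay above those of sgControl, and all libraries of sg2 and sg3 lay below them. Its relative Ptprn, a protein of dense-core secretory vesicles, was the member with the highest control level, with 2133, 2161 and 1957 in sgControl, 2879, 3123 and 3028 in sg1, 344, 324 and 443 in sg2 and 101, 139.6 and 159.7 in sg3. Its sg3 mean was 15.6-fold and its sg2 mean 5.63-fold lower than sgControl, while the rise in sg1 was 1.44-fold and no longer met the limit under either other scaling of the libraries.

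Hedgehog co-receptors were found on both sides. Gas1, a membrane-anchored co-receptor, was highest in sg1 at 233 ± 14.4, against 147 ± 10.1 in sgControl, 108 ± 33.1 in sg3 and 39.4 ± 2.69 in sg2, and its low values were fractional and not whole reads. Boc, another co-receptor of the same ligands, was highest in sg3, with 230.5, 252 and 211, against 122, 161 and 136 in sgControl, 127, 126 and 147 in sg1 and 35.5, 25.9 and 34 in sg2. For Boc sg1 overlapped sgControl, whereas both genes were lowest in sg2, 3.72-fold below sgControl for Gas1 and 4.4-fold for Boc.

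Rgma, a membrane-anchored co-receptor of bone morphogenetic proteins, had its lowest level in sg3, with 6.98, 12.5 and 7.3 against 122.81, 92.5 and 92.5 in sgControl, 212, 194 and 217 in sg1 and 80.4, 68.7 and 65.4 in sg2. Bst1, a surface enzyme of NAD metabolism, and Tnfrsf26, a receptor of the tumor necrosis factor family, were likewise highest in sg1 and lowest in sg3. Their sg1 means were 1.7-fold and 2.0-fold higher and their sg3 means 3.8-fold and 1.35-fold lower than sgControl. The other members of the group stood just inside the limit. Lhfpl4, an auxiliary protein of GABA receptors, had a mean of 135 ± 10.7 in sg2 against 104 ± 9.0 in sgControl, and 33.8 ± 7.31 in sg1 and 23.7 ± 4.99 in sg3. P2rx7, an ATP-gated channel, had 77.7 ± 15 in sg3 against 59.6 ± 4.08 in sgControl, and 14.9 ± 1.41 in sg1 and 6.75 ± 0.696 in sg2. For both the lower lines lay far further from the control than the higher line.

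Of the 4 secreted factors, 3 were lowest in sg2, beside 28 of all 62 members. Slit2, the ligand of Robo receptors, had values of 32.4, 29.9 and 36.2 in sgControl, 88.3, 91.2 and 89.5 in sg1, 7.31, 0.996 and 6.1 in sg2 and 16.3, 9.63 and 12.8 in sg3, and no knockout line overlapped the control. Stc1, a glycoprotein hormone, had 194, 161 and 272 in sgControl, 267, 281 and 327 in sg1, 4.18, 3.98 and 3.49 in sg2 and 40.7, 40.4 and 42.9 in sg3. One sgControl library of Stc1 reached into the range of sg1, while its sg2 and sg3 libraries lay below all those of sgControl. Bmp7, a bone morphogenetic protein, was 1.53-fold higher in sg1 and 2.07-fold lower in sg2, at 231 ± 4.4 there against 477 ± 42.6 in sgControl. Pros1, the anticoagulant protein S and a ligand of TAM receptors, had the opposite order. It was at 6.38, 5.82 and 5.52 in sg1 and 378, 343 and 341 in sg2, against 156, 117 and 153 in sgControl and 94.3, 113 and 142 in sg3, with sg2 2.49-fold above the control and sg3 overlapping it.

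**Figure D4:**
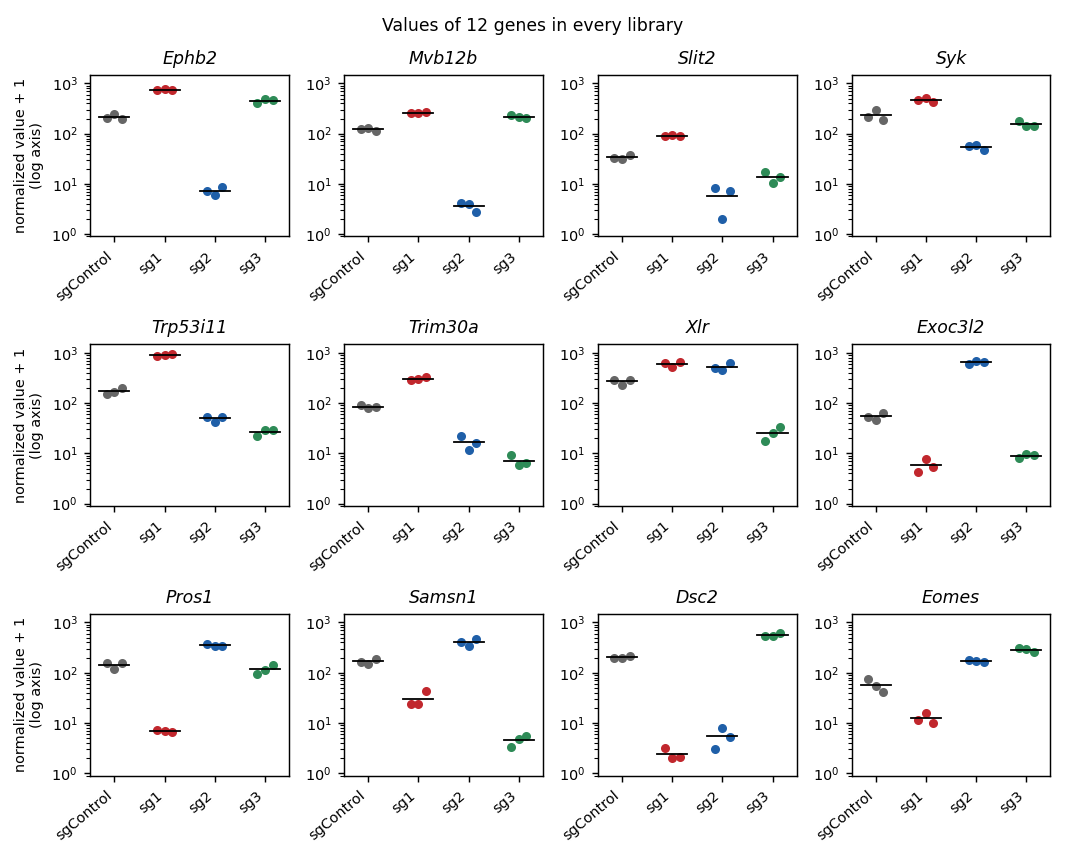
Points are the 3 libraries of each line for 12 opposite genes and bars their means, as normalized value + 1 on a log axis. Ephb2 and Mvb12b fell to a few units in sg2 alone, Dsc2 in sg1 and sg2, and Exoc3l2 in sg1 and sg3. Replicates at a few units could spread widely on this axis, as for Slit2 in sg2 with values of 7.31, 0.996 and 6.1.

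Among 8 adhesion, junction and matrix genes, Dsc2, a cadherin of desmosomes, showed the widest contrast. It stood at 199, 197 and 212 in sgControl and 529.6, 533 and 604 in sg3, but at 2.13, 0.97 and 1.1 in sg1 and 2.09, 6.97 and 4.36 in sg2. The sg3 libraries were 2.74-fold above the control on the means, and the other lines were at the level of a few reads. Other adhesion genes were highest in sg1. Pcdh12, a protocadherin, was at 553, 541 and 509 in sg1 against 161, 122 and 146 in sgControl, with 88.8, 109.5 and 106 in sg2 and 96.6, 116 and 109 in sg3. Itga2, the alpha chain of a collagen-binding integrin, was 2.14-fold higher in sg1 and 1.41-fold in sg2, and 1.32-fold lower in sg3.

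Of the matrix and junction genes that remain, 3 were highest in sg1. Col12a1, a collagen associated with fibrils, and Adamtsl3, a secreted relative of matrix proteases, were 3.42-fold and 2.98-fold higher in sg1 and 1.32-fold and 1.46-fold lower in sg2. P3h3, an enzyme that hydroxylates collagen, was at 18.7, 19 and 31.5 in sgControl, 39.3, 42.7 and 38.7 in sg1, 9.4, 11 and 11.3 in sg2 and 6.98, 2.89 and 1.82 in sg3, a low level in each line. The other pair was highest in sg2 and lowest in sg3. Npnt, a matrix ligand of integrins, was at 499, 486 and 431 in sg2 and 73.3, 77 and 83 in sg3 against 357, 283 and 258 in sgControl, and sg1 overlapped the control. Plekha7, a protein of adherens junctions, was 1.73-fold higher in sg2 and 3.7-fold lower in sg3, with sg1 1.53-fold lower.

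Intracellular signalling genes included 3 known from immune receptor signalling, the kinase Syk, its adaptor substrate Blnk and the adaptor Grap. All 3 were highest in sg1 and lowest in sg2. Syk had values of 211, 300.2 and 189 in sgControl, 472, 506 and 425 in sg1, 55.4, 57.8 and 45.3 in sg2 and 176, 142 and 144 in sg3. Grap fell in both other lines, to 24, 24.9 and 46.2 in sg2 and 30.3, 52.9 and 42 in sg3 from 135, 162 and 137 in sgControl, with 366, 383 and 306 in sg1. For Blnk the third line lay on the other side, with 209.5, 180.0 and 222 in sg3 above 125, 137 and 129.7 in sgControl, 334, 351 and 380.1 in sg1 and 64.8, 88.6 and 78.4 in sg2. All 3 genes were thus above the control in sg1 and below it in sg2, by 1.69-fold for Blnk, 4.42-fold for Syk and 4.57-fold for Grap, and in sg3 Syk and Grap were below it and Blnk above.

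Samsn1, an adaptor also known from lymphocytes, had another order. It was at 401, 341 and 476 in sg2, 160.1, 151 and 189.7 in sgControl, 22.3, 22.3 and 42 in sg1 and 2.33, 3.85 and 4.56 in sg3, without overlap between any 2 lines. Ripk3, the kinase of necroptosis, was 1.66-fold higher in sg1 and 1.33-fold in sg2 but 4.67-fold lower in sg3, where its libraries held 81.5, 83.7 and 72.1. Sorbs2, an adaptor of the actin cytoskeleton, was near loss in sg1 alone, with 3.19, 3.88 and 4.42 against 84.5, 78.9 and 95.3 in sgControl, 121, 132 and 117 in sg2 and 125, 107 and 108 in sg3. Gngt2, a G protein gamma subunit, and Nos1, a nitric oxide synthase, had wide replicates. Gngt2 was at 93, 67.7 and 109 in sg2 and 57, 60.8 and 72.5 in sgControl, and Nos1 at 76.8, 114 and 99.5 in sg3 and 62.9, 55.3 and 104 in sgControl, so that for both the higher line overlapped the control.

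All 5 interferon-induced genes and GTPases of immunity were highest in sg1, and 4 of them were lowest in sg3. Over all 62 members these numbers were 42 and 23, and the group was formed after the values were seen. Trim30a, a TRIM family protein of immune cells, was at 288, 301 and 334 in sg1, 90.3, 78 and 84.8 in sgControl, 20.9, 11 and 14.8 in sg2 and 8.15, 4.81 and 5.47 in sg3. The guanylate-binding protein gene Gbp4 was at 336, 296 and 307 in sg1, 85.5, 91.2 and 98.2 in sgControl, 104, 83.6 and 109 in sg2 and 62.9, 62.6 and 75.7 in sg3. All sg1 libraries lay above and all sg3 libraries below those of sgControl, while the sg2 libraries lay on both sides of the control range. Gimap9, a GTPase of lymphocytes, was 3.98-fold higher in sg1, 1.85-fold higher in sg2 and 2.0-fold lower in sg3. Oasl1, a protein related to oligoadenylate synthetases, was 1.43-fold higher in sg1 and 3.72-fold lower in sg3, and its rise no longer met the limit under either other scaling. Ifit2, an antiviral protein that binds RNA, stood apart, with 152, 131 and 155 in sg1 and 71, 68.3 and 91.2 in sg3 above 27.5, 22.7 and 51.5 in sgControl, while sg2 at 18.8, 21.9 and 34 overlapped the control. These genes belong to families with close copies, between which the authors' counting could divide reads. Their values under 100 were whole reads in 9 of 9 cases each for Ifit2, Trim30a and Gimap9. For Oasl1 12 of 12 were whole and for Gbp4 6 of 7, and a division of reads between copies was not tested.

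The whole list of interferon-stimulated and antigen presentation genes held 17 genes left by the exclusions, 5 of them members. With sg1 13 of them were called higher and 2 lower, with sg2 7 and 2, and with sg3 8 and 4. Over all deposited genes 50.1% were called higher and 39.1% lower with sg1, 30.2% and 29.4% with sg2, and 26.5% and 33.4% with sg3. On the log2 scale the median ratio of the 17 genes to sgControl was 0.53 in sg1, 0.19 in sg2 and 0.24 in sg3. This list is a symbol pattern and also takes in Trim71, which is not an interferon gene.

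Among 9 genes of transcription, chromatin and RNA, Eomes and Hoxa7 had contrary patterns. Eomes, a T-box transcription factor, was at 73.7, 53.5 and 41 in sgControl, 10.6, 14.5 and 8.84 in sg1, 182, 166 and 159 in sg2 and 307, 295 and 260.0 in sg3, 3.02-fold and 5.13-fold above the control in the higher lines and 4.94-fold below it in sg1. Hoxa7, a homeobox transcription factor, was at 138, 136 and 174 in sgControl, 366, 388 and 381 in sg1, 16.7, 23.6 and 18 in sg2 and 7.42, 6.44 and 12.4 in sg3. Its low values were largely fractional, so its counting is uncertain. Hoxb3os, an antisense transcript of the Hox cluster on chromosome 11, was at 0.00496, 1.21 and 0.0682 in sg2 against 44, 50.2 and 53.1 in sgControl, and its sg1 libraries, at 109.97, 46.6 and 64.7, overlapped the control. Of its 11 values under 100, 3 were whole reads, and 1 sg1 library lay far above the other 2.

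Xlr, an X-linked nuclear protein of lymphoid cells with near-identical copies, was at 16.3, 24.1 and 32.8 in sg3 against 293, 229 and 289 in sgControl, 634, 517 and 667 in sg1 and 506, 449 and 624 in sg2. Which copy the reads came from cannot be told. Trim71, an RNA-binding protein of early development and a target of let-7, was 3.94-fold lower in sg1, at 275, 247 and 238, and 1.33-fold higher in sg2. Smarcd3, a subunit of SWI/SNF chromatin remodelling complexes, was at 328 ± 20.2 in sg3, 234 ± 11.6 in sgControl, 169.7 ± 15.1 in sg1 and 72 ± 5.02 in sg2, with fractional low values. Smaller rises in sg1 were found for Pbxip1, a partner of PBX proteins, for Sertad4, a SERTA domain protein, and for Celf4, an RNA-binding protein of neurons. They were 1.33-fold, 1.36-fold and 1.39-fold, beside falls of 3.87-fold in sg2, 2.45-fold in sg2 and 3.19-fold in sg3, and the rises no longer met the limit under either other scaling.

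Of 9 trafficking and cytoskeleton genes, 5 were lowest in sg1, beside 11 of all 62 members. Exoc3l2, a protein related to the exocyst complex, was at 597, 692 and 644 in sg2 against 52.1, 46.3 and 62 in sgControl, a 12.1-fold higher mean, and at 3.19, 6.79 and 4.42 in sg1 and 6.98, 8.66 and 8.21 in sg3. Klhl13, an adaptor of cullin ubiquitin ligases, and Ninl, a centrosome protein, shared a pattern in which sg1 was near loss and both other lines were above the control. Klhl13 was at 117, 102 and 144 in sgControl, 4.25, 3.88 and 4.42 in sg1, 306, 266 and 342 in sg2 and 262, 341 and 349 in sg3. Ninl was at 43.2, 37.2 and 50.5, 3.19, 0.97 and 2.21, 80.4, 76.7 and 62.7 and 86.1, 71.2 and 70.3 in the same order, and for both genes sg2 and sg3 overlapped each other.

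Mvb12b, a subunit of the ESCRT-I sorting complex, was near loss in sg2 alone and above the control in sg1 and sg3. Its values were 125, 129 and 112 in sgControl, 252, 259 and 269 in sg1, 3.13, 2.99 and 1.74 in sg2 and 236.27, 212 and 199.8 in sg3. Rab3b, a GTPase of secretory vesicles, and Dmxl2, a protein of synaptic vesicles and of the proton pump, were highest in sg2, 1.61-fold and 1.74-fold above the control, and lowest in sg1, 5.21-fold and 3.78-fold below it. Psrc1, a spindle protein, was near loss in sg3, with 4.66, 3.85 and 2.74 against 39.3, 42.6 and 33.4 in sgControl and 75.2, 45.8 and 61.9 in sg2. The actin-binding protein gene Cotl1 and the microtubule-associated protein gene Map1a were expressed at higher levels and moved less. Cotl1 was 1.64-fold higher in sg1 and 2.55-fold lower in sg2, and Map1a 1.79-fold higher in sg1 and 1.47-fold lower in sg3.

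All 4 genes grouped here as metabolic enzymes were highest in sg1 and lowest in sg2, beside 42 and 28 of all 62 members. The grouping was made after the values were seen, and the enzyme Bst1, placed with the receptors, was lowest in sg3. Sardh, a mitochondrial enzyme that oxidizes sarcosine, was at 189, 202 and 219 in sg1, 66.8, 65.3 and 98.2 in sgControl, 10.4, 21.9 and 14.9 in sg2 and 43.1, 43.3 and 36.5 in sg3. Chst2, a sulfotransferase of glycan chains, was at 287, 299.7 and 283 in sg1, 95.3, 144 and 109 in sgControl, 29.3, 28.9 and 18.3 in sg2 and 82.6, 89.5 and 78.5 in sg3. The falls of both genes in sg2 were clear of the control libraries. Aldh3a1, an aldehyde dehydrogenase, was 5.46-fold higher in sg1, but its sg2 libraries, at 38.7, 28.9 and 28.8, overlapped the control at 32.4, 43.5 and 51.5. Mgll, the lipase of monoglycerides, was 2.37-fold higher in sg1 and 1.31-fold lower in sg2.

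For 3 further genes, all highest in sg1, no role is given. Ankrd66, an ankyrin repeat gene, was low in every other line, with 14.7, 18.1 and 12.4 in sgControl, 8.36, 13.9 and 11.3 in sg2 and 16.3, 20.2 and 25.5 in sg3, and reached 1015, 959 and 1011 in sg1. All sg1 libraries lay far above those of sgControl, while the libraries of sg2 and of sg3 overlapped the control. Trp53i11, named as induced by p53, was at 876, 891 and 968 in sg1 against 150.3, 166 and 204 in sgControl, 52.2, 40.8 and 53.2 in sg2 and 21, 28.9 and 28.3 in sg3, without overlap with the control. Ttc9 was 2.52-fold higher in sg1 and 1.99-fold in sg2, and 2.16-fold lower in sg3.

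Over all genes left by the exclusions, 62 of 742 were members, 8.36%. By list, members numbered 3 of 7 adhesion genes left by the exclusions (Pcdh12, Itga2 and Dsc2), 4 of 24 protein kinases and phosphatases (Ptprr, Syk, Ptprn and Ripk3), 3 of 24 receptors for growth factors, cytokines and guidance cues (Ephb2, Fzd8 and Tnfrsf26), 3 of 42 metabolic enzymes and 1 of 24 small GTPases and their regulators, and none of 6 mesenchymal markers. In the list of 24 receptors 18 were called higher and 4 lower with sg1, 11 and 6 with sg2, and 10 and 6 with sg3, where 50.1% and 39.1% of all deposited genes were called with sg1, 30.2% and 29.4% with sg2, and 26.5% and 33.4% with sg3. Of the 42 metabolic enzymes 14 were called higher and 25 lower with sg1, 6 and 13 with sg2, and 8 and 16 with sg3, so that its 3 members, all higher in sg1, were on the side of the smaller number there, beside the same shares of all genes.

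Members lay on 19 chromosomes. Chromosome 5 held 7 of the 46 genes left by the exclusions there, chromosome 7 held 6 of 43 and chromosome 18 held 4 of 19, while chromosomes 10 and 17 held 1 of 33 each, beside the 8.36% over all chromosomes. Neighbours were few, with 2 of 43 consecutive pairs on a chromosome within 1 Mb. Aldh3a1 and Grap on chromosome 11, 0.435 Mb apart in GENCODE M21, had the same pattern, with sg1 highest and sg2 lowest. Gngt2 and Hoxb3os on the same chromosome, 0.497 Mb apart, had contrary patterns. Within 5 Mb there were 8 pairs, of which 3 shared a pattern.

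The limit of 1.3 divided genes of like values. Just inside were Lhfpl4, whose sg2 mean was 1.3 times that of sgControl, and P2rx7, with 1.3 times in sg3. Just outside was Bcat1, an aminotransferase of branched-chain amino acids, with 1.29 times in sg3 and an sg2 mean 10.6-fold lower than sgControl. Under both other scalings of the libraries, by table totals and by the median of ratios, 50 of the 62 members still met the rule. The other 12 missed it under at least 1 of them, namely Celf4, Gngt2, Lhfpl4, Nos1, Oasl1, P2rx7, Pbxip1, Ptprn, Sertad4, Sorbs2, Stc1 and Trim71. The rule was met whichever 1 library was left out by 47 members. Applied within the libraries of each replicate number separately, the rule was met 3 times over by 38 members.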

How the data were processed

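Total RNA of 12 libraries in 4 groups of 3 was analysed, grouped by the treatment named in the labels. The authors deposited 1 table of a normalized signal per gene, read here as estimated counts divided by a size factor per library. Between 79.8% and 85.4% of values under 100 were whole reads to within 0.05 reads, so whole reads were not recovered and no count model was run. Per the submitters' processing notes the tools were STAR 2.7.8a, Partek and DESeq2. The mouse build, annotation and counting are not given in the sources used here. Columns were matched to samples by name. Depth beyond the table sums is unknown. Symbols came from GENCODE M21 (972 of 982 genes matched).

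Members and lists were chosen with earlier results of these data known, and roles were assigned after their values were seen. The rule was applied to means of deposited values. Calls were made with limma 3.58.1 in R 4.3.3 on log2(value + 1) over all 982 genes with trend and robust estimates, tested on simulated data, and fold changes on that scale understate those of low genes. Named were the 5 members of each pattern with the widest span and a highest mean of at least 20, those in 16 lists and those at the limit, of which 1 is not reported here. The remaining members were added after their values were seen. No replicates differed by less than counting noise. Alternatives were the scaling, the average, the fold limit, the pseudocount, a filter on low values, the spread, the replicate block and leaving out each library. Geometric means and single replicate numbers were added after the data were seen.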

Additional observations from a re-analysis of the deposited data

Results flagged for a closer look

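For 54 of the 62 opposite genes all 3 libraries of one knockout line lay above, and all 3 of another below, every sgControl library, as did 10.8% of all deposited genes. The rule itself selects genes of this kind, and the difference between the lines was not tested.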

How the results depend on the processing

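The number of members was 38 at a fold limit of 1.5 and 20 at a limit of 2, since fewer genes can pass, and 78 at 1.2. It lay between 58 and 67 when 1 library was left out, at 60 after scaling by table totals and at 55 after scaling by the median of ratios. Members lost on leaving out some library numbered 15: Aldh3a1, Ankrd66, Col12a1, Gngt2, Hoxb3os, Ifit2, Itga2, Lhfpl4, Mgll, Nos1, P2rx7, Pbxip1, Stc1, Tnfrsf26 and Trim71. Same-numbered libraries deviated together for sg1 and sg2 with sgControl (correlations of 0.122 to 0.238 across genes) and not for sg3 with sgControl (-0.0786 to -0.00383). Between knockout lines the correlations ranged from -0.0317 to 0.324 for sg1 with sg2 and from -0.0221 to 0.192 for sg1 with sg3. For sg2 with sg3 they ranged from -0.0636 to 0.165, so the numbers do not pair all groups. With the replicate block, members called both ways numbered 52 in place of 53, beside 10.2% of all 982 genes in place of 9.57%. Those called with sg1, sg2 and sg3 numbered 56, 55 and 53 in place of 57, 54 and 53, beside 90.9%, 68.3% and 67.3% of all genes under the block, and nothing is read from these counts. Of 620 recomputed ratios of a member in its highest or lowest line, 0 changed direction and 203 moved by over 1 SD. Values of a few reads limit every fall to near loss.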
